A study of Mus musculus with 2 samples.

Results

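The Igf2r-Airn domain is an imprinted cluster on mouse chromosome 17, and CpG methylation was described here at its 4 genes Igf2r, Airn, Slc22a2 and Slc22a3. Members were the CpG cytosines in the bodies of these genes, or within 1 kb on either side of their transcription starts, that had at least 5 reads in each library and lay outside the recognition sites of the cutting enzymes. By this rule 348 cytosines of 193 CpGs were members, of 1850635 cytosines that passed the same filter in the whole genome. The libraries held 944 cytosines in these regions in at least 1 of them, of which 403 lay inside a recognition site and 541 did not, and 348 of the latter had enough reads in both. The start of Airn, which lies inside an intron of Igf2r, and the start of Igf2r were kept apart.

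DNA came from mouse C3H myoblasts that had been differentiated into myotubes, the multinucleate muscle cells formed in culture, and then transfected with a control short interfering RNA (siCon) or with one that targets H19, a long non-coding RNA (siH19), with DNA taken after 48 h in both groups. Methylation was read by reduced representation bisulfite sequencing (RRBS), in which DNA is cut with MspI (CCGG) and TaqαI (TCGA) and fragments of a chosen size are converted with bisulfite, so that reads fall on short CpG-rich fragments and the rest of the genome is hardly seen. The comparison asked how methylation differed between myotubes with and without H19 knockdown. There was 1 library per group and no replicate, the labels do not say how many cultures went into it, and every test below compares these 2 libraries and not the conditions.

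In mouse, Igf2r is expressed from the maternal chromosome in most tissues. Airn is a long non-coding RNA that starts within Igf2r, is transcribed from the paternal chromosome across the Igf2r promoter on the opposite strand, and silences Igf2r in cis. On the maternal chromosome the region around the Airn start is methylated from the oocyte onwards and Airn is silent. The silent paternal Igf2r promoter is known to be methylated in somatic tissue. Slc22a2 and Slc22a3 are imprinted in placenta, where they are silent on the paternal chromosome. Igf2r encodes the receptor that clears insulin-like growth factor II and sorts mannose phosphate-tagged enzymes to lysosomes. Slc22a2 and Slc22a3 encode organic cation transporters. The reads were not assigned to parental chromosomes, so a level near the middle of the scale cannot be divided between alleles.

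The siCon library held 5453019 cytosines with 104999613 reads summed over them, and the siH19 library 5266846 with 106372792. Median depth at the members was 25.5 reads in siCon and 26 in siH19, against 24 in both over all filtered cytosines. H19 RNA was not measured in these libraries, so the knockdown was not checked. No RNA marker of muscle was measured either. At the start windows of 6 muscle genes the level went from 34.1% to 39.4% at Myod1, from 60.6% to 55.2% at Myf5, from 72.7% to 80% at Myog, from 3.98% to 5.00% at Des, from 7.98% to 11.3% at Ckm and from 12.8% to 11.7% at Acta1, and none of the 6 was called different by the rule used for the members.

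The members lay on 62 restriction fragments, and their sequence decides which CpGs could be seen. The stretches below are those of the Airn start window, the pair upstream of the Igf2r start whose levels differed in opposite directions, and the fragment that stood above the rest of the Slc22a3 start. Capitals mark the CpGs outside the recognition sites with at least 5 reads in each library on at least 1 strand. The site CpGs at the fragment ends are in lower case whatever their reads. All stretches are from GRCm38 and given 5′ to 3′ in the direction of the named gene. The 2 from Airn lie in an intron of both Airn and Igf2r, on the plus strand, at chr17:12741597-12741751 and chr17:12742235-12742378. The 2 from Igf2r are on the minus strand at chr17:12769699-12769789 and chr17:12769786-12769837, upstream of Igf2r and within an intron of Airn. That from Slc22a3 is on the minus strand at chr17:12508058-12508149, in intergenic sequence upstream of the gene.
Airn start, near fragment: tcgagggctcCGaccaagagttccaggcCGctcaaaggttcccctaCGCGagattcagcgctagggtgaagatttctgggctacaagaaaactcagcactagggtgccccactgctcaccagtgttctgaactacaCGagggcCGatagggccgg
Airn start, far fragment: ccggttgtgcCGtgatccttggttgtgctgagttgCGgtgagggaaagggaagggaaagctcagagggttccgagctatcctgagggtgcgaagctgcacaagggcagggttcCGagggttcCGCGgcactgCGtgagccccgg
Igf2r start, upstream fragment next to the start: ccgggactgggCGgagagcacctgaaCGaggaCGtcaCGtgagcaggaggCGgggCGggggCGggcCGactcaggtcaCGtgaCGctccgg
Igf2r start, outermost upstream fragment: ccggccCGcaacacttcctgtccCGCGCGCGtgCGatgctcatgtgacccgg
Slc22a3 start, upstream fragment: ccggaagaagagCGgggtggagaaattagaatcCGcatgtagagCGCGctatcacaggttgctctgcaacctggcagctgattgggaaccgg

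The 4 start windows of 2001 bp differed in CpG content. The Igf2r window held 125 CpGs with an observed to expected ratio of 0.735, the Slc22a3 window 88 with 0.538, the Airn window 75 with 0.538 and the Slc22a2 window 38 with 0.291. The hexamer TGCCGC, which the zinc finger protein ZFP57 binds when it is methylated, was searched on both strands. It occurred 5 times in the Airn window, once each in the Igf2r and Slc22a2 windows, and not in the Slc22a3 window. At least 1 match was present in 28.6% of the 55413 annotated start windows, and 0.596% of them held as many as Airn. None of the 5 hexamer CpGs in the Airn window had reads in either library. A further match just past the window, at 1048 bp on the far fragment printed above, was methylated in 38.0% of 50 siCon reads and in 32.3% of 31 siH19 reads. The 1 at Igf2r was methylated in 22.4% of 85 siCon reads and in 31.0% of 87 siH19 reads.

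Across the domain levels differed between regions in both libraries, and also between fragments within a region. Read numbers of a region or fragment are summed over its cytosines, so a read is counted once for each member cytosine it covers. Igf2r sequence outside Airn was mostly highly methylated, 69.1% of 876 reads in siCon and 72.7% of 948 in siH19 over 42 cytosines, with 13 of its 24 fragment strands above 70% in both. The Airn and Igf2r starts lay in the middle of the scale, and the Slc22a3 start was nearly unmethylated. Levels between 20% and 80% in both libraries were found at 22.7% of the 19476 start windows with at least 5 covered cytosines, whereas 58.7% lay under 10% in both. The Airn, Igf2r and Slc22a2 starts were among the former and the Slc22a3 start among the latter.

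**Figure D1:**
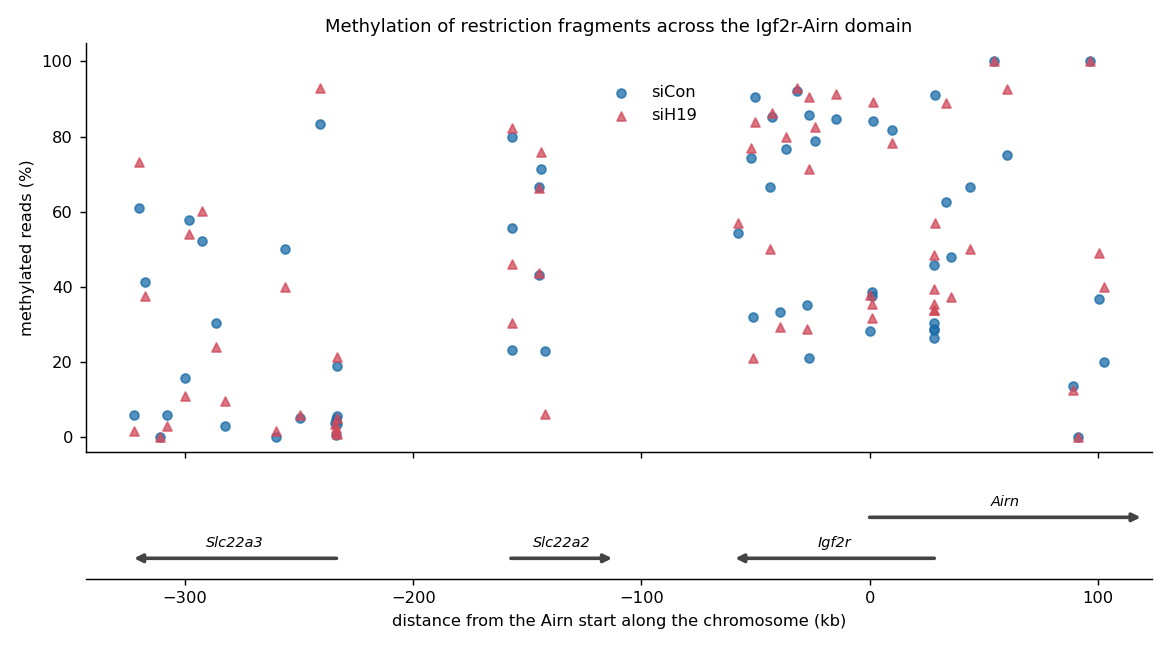
Share of methylated reads (%) on each of the 62 restriction fragments against its distance from the Airn start in kb, strands summed, with siCon as circles, siH19 as triangles and the 4 genes drawn below as arrows in the direction of transcription. Points at the Airn and Igf2r starts lie mostly between 26.5% and 48.6%, those at the Slc22a3 start mostly under 10%, and most of the Igf2r body is higher.

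The Airn start, like the Igf2r start, lay at a middle level. Its window, chr17:12740311-12742311, had 15 covered cytosines, all downstream of the start. Methylated reads made up 31.0% in siCon (86 of 277, Wilson 95% interval 25.9 to 36.7) and 36.9% in siH19 (97 of 263, 31.3 to 42.9). These intervals overlap, and like all binomial intervals here they cover the counting of reads alone, as several reads may copy 1 molecule and no molecular identifiers were used. Intervals over several cytosines are also too narrow, because a read enters once for each cytosine it covers. Of the 15 cytosines, 14 were between 20% and 80% in both libraries.

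The near fragment of Airn, 296 to 430 bp after the start, had 28.2% of 177 reads methylated in siCon and 37.8% of 201 in siH19. On the plus strand its 5 cytosines lay between 27.8% and 31.6% in siCon and between 38.9% and 53.3% in siH19, with 15 to 19 reads each. On the minus strand the 5 that had any methylated read lay between 21.4% and 33.3% in siCon and between 33.3% and 38.1% in siH19. Each of these 10 cytosines was thus at the same level or higher in siH19, and 2 of them were equal. The far fragment, 934 to 1057 bp after the start, was lower in siH19, with 37.7% of 300 reads in siCon and 31.7% of 186 in siH19. One minus strand cytosine of the near fragment, at position 12741646, had no methylated read among 12 in siCon and 14 in siH19, which allows a share of up to 25.0% and 21.4%, while its neighbour at 12741644 had 28.6% and 38.1%. The plus strand of that CpG had no reads.

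The 5 CpGs with the most reads at the Airn start were those 296, 422, 429, 934 and 959 bp after it. The deepest, at 934 bp, had 36.8% of 38 plus strand reads methylated in siCon and 26.1% of 23 in siH19, and 33.3% of 12 and 25.0% of 8 on the minus strand. The CpG at 959 bp, on the same reads, went from 36.8% to 43.5% on the plus strand and from 33.3% to 37.5% on the minus strand. The CpGs 422 and 429 bp after the start went from 27.8% to 44.4% and from 31.6% to 38.9% on the plus strand, with 18 or 19 reads. None of the 15 cytosines reached a two-sided Fisher's exact p of 0.05.

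Beyond the window the level stayed in the same range for a short distance and then was high. The fragment 1142 to 1178 bp after the Airn start had 38.6% of 207 reads methylated in siCon and 35.6% of 132 in siH19. The next covered CpG, 1605 bp after the start, had 84.2% of 19 and 89.1% of 46 reads methylated. No member CpG lay between 1178 and 1605 bp, so where the level changed was not seen. A fragment about 10.0 kb after the start had 81.7% of 251 and 78.4% of 356, and the nearest covered fragment on the other side, 14.9 kb before it, 84.7% of 59 and 91.5% of 129. The level in between, on the upstream side of the Airn start, was not read in both libraries.

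**Figure D2:**
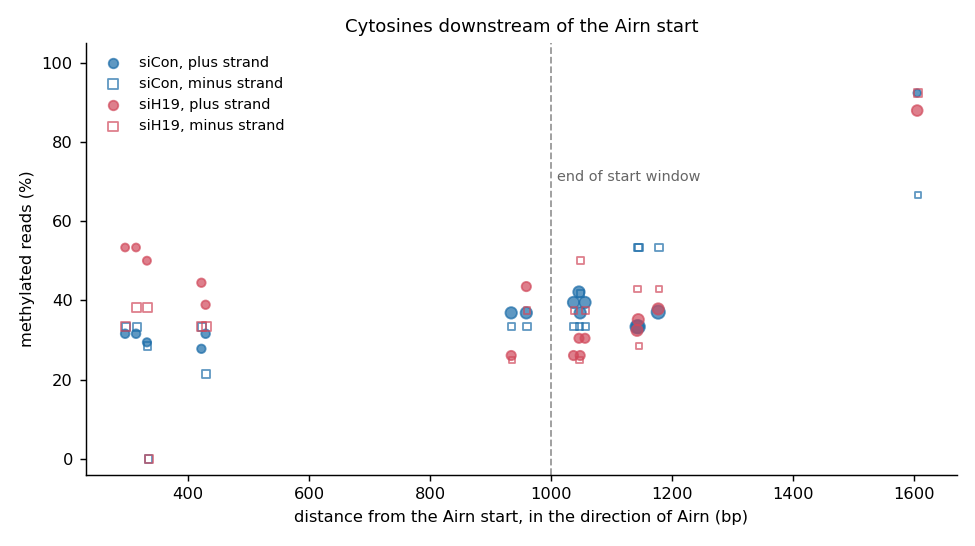
Methylated reads (%) of each covered cytosine downstream of the Airn start against its distance in bp, with siCon in blue, siH19 in red, the plus strand as filled circles, the minus strand as open squares and the mark area growing with the number of reads. Apart from 1 cytosine at 0% in both libraries, levels lie between 21.4% and 53.3% up to 1178 bp and between 66.7% and 92.3% at the CpG near 1605 bp.

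The difference at a window was estimated cytosine by cytosine, each compared with itself between libraries (Mantel-Haenszel difference with cytosine and strand as strata), and tested by the Cochran-Mantel-Haenszel test with Benjamini-Hochberg adjustment over all start windows. A window was called where the adjusted p was under 0.05 and the libraries differed by 10 percentage points or more. Exact p-values of the same test, from the conditional distribution of the reads, are given for the members beside the adjusted ones. By this rule 0.442% of the 19476 start windows were called higher in siH19 and 0.185% lower, and none of the 4 members was called in either direction. At the Airn start siH19 was 6.83 points above siCon (SE 4.02, 95% interval -1.05 to 14.7, exact p = 0.115, adjusted p = 0.333). The difference was 10.5 points (SE 4.73) on the near fragment and -5.94 (SE 4.38) on the whole far one, and over a window of 500 bp, which holds only the near fragment, the adjusted p was 0.174. The far fragment reaches 1057 bp, so the value of -5.94 also takes in cytosines beyond the start window. With 1 cytosine, the deepest, kept for each fragment and strand, the Airn difference was -3.41 points (interval -18.3 to 11.5, exact p = 0.731), so no direction was detectable at this depth. Where several cytosines of a fragment strand tied for the most reads, the one at the lowest chromosome position was kept, and other choices were not tested. On some fragment strands depth varied widely, from 75 to 151 siCon reads on the minus strand of the upstream Slc22a3 fragment. Why it varied, and whether the deepest cytosine counts each molecule only once, was not tested.

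The Igf2r start was the best covered region of the domain, with 118 cytosines of 62 CpGs between 166 bp before and 383 bp after the start, in the window chr17:12768664-12770664. Methylated reads made up 31.5% in siCon (1029 of 3269, interval 29.9 to 33.1) and 39.3% in siH19 (1529 of 3886, interval 37.8 to 40.9). These intervals do not overlap, but a read enters them once for each cytosine it covers. With 1 cytosine kept for each fragment and strand, the window held 294 reads in siCon and 381 in siH19. Of the 118 cytosines, 101 were between 20% and 80% in both libraries. Higher values in siH19 were seen at 92 cytosines and lower ones at 25, with a median difference of 8.46 points, where 35.8% of all filtered cytosines were higher, 33.7% were lower and the median difference was 0. The genome shares are over cytosines of all levels, the rest being equal in both libraries. Cytosines of a fragment strand share reads and are not separate observations. Of the 11 fragment strands of the window, 8 were higher in siH19 and 3 lower.

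The stratified difference at the Igf2r start was 6.80 points (SE 1.12, interval 4.61 to 8.99, exact p = 3.26e-09, adjusted p = 1.45e-06), under the 10 points required for a call. An adjusted p under 0.05 with a higher level in siH19, whatever the size, was reached by 4.92% of start windows, of the members by the Igf2r start alone. The cytosines of one fragment are read on the same DNA molecules, so that test counts each molecule several times. Of 104 fragment strands in the domain 64 carried several member cytosines, and the number of reads was the same at all of them on 33 in siCon and on 29 in siH19. With the deepest cytosine of each fragment and strand alone, 11 in all, the Igf2r difference was 2.85 points (SE 3.74, interval -4.49 to 10.2, exact p = 0.508, adjusted p = 0.845). Ties in depth were again settled by position, so this value depends in part on an arbitrary choice. Both strands were higher in siH19, by 5.60 points on the plus and 8.30 points on the minus strand.

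The fragments of the Igf2r start did not differ in the same direction. The 3 downstream of the start were higher in siH19. That nearest to the start, 58 to 140 bp into the gene in an exon, had 30.5% of 954 reads methylated in siCon and 48.6% of 704 in siH19, the next 28.5% of 1137 and 34.0% of 1123, and the farthest 26.5% of 325 and 34.0% of 506. The fragment across the start itself was lower in siH19, 45.8% of 275 reads in siCon and 35.6% of 444. Upstream, the fragment next to the start was higher in siH19, 28.9% of 522 reads and 39.5% of 899. The outermost fragment, 139 to 166 bp upstream, was lower, 91.1% of 56 reads in siCon and 57.1% of 210. The stratified differences ran from -34.0 points (SE 5.03) on the outermost fragment to 17.1 (SE 2.41) on that nearest to the start in the exon, and these SEs also count shared molecules several times.

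At the deepest cytosine of each of these fragments and strands no exact p was under 0.05. On the exonic fragment nearest to the start it was 13 of 46 reads in siCon and 13 of 25 in siH19 on the plus strand (two-sided Fisher's exact p = 0.0707), and 10 of 25 and 16 of 27 on the minus strand (exact p = 0.267). On the outermost fragment it was 8 of 10 and 18 of 36 on the plus strand (exact p = 0.15). Over the domain, 1 of the 104 fragment strands had an exact p under 0.05 at its deepest cytosine. The share over all fragment strands of the genome is not given here, so this count cannot be set against it.

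The 5 CpGs with the most reads at the Igf2r start lay on a single fragment, 176 to 242 bp into the gene, with 50 and 43 reads on the plus strand in siCon and siH19 and 38 and 44 on the minus strand. At the CpG 229 bp after the start the plus strand went from 42.0% to 65.1% and the minus strand from 47.4% to 50%. At that 178 bp after it the plus strand went from 20% to 23.3% and the minus strand from 28.9% to 36.4%. In siCon the same plus strand fragment thus read 42.0% at one CpG and 20% at the other. One minus strand cytosine, 106 bp after the start, had no methylated read among 17 in siCon and 13 in siH19, which allows up to 17.6% and 23.1%, while its plus strand had 11 of 43 and 10 of 21.

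**Figure D3:**
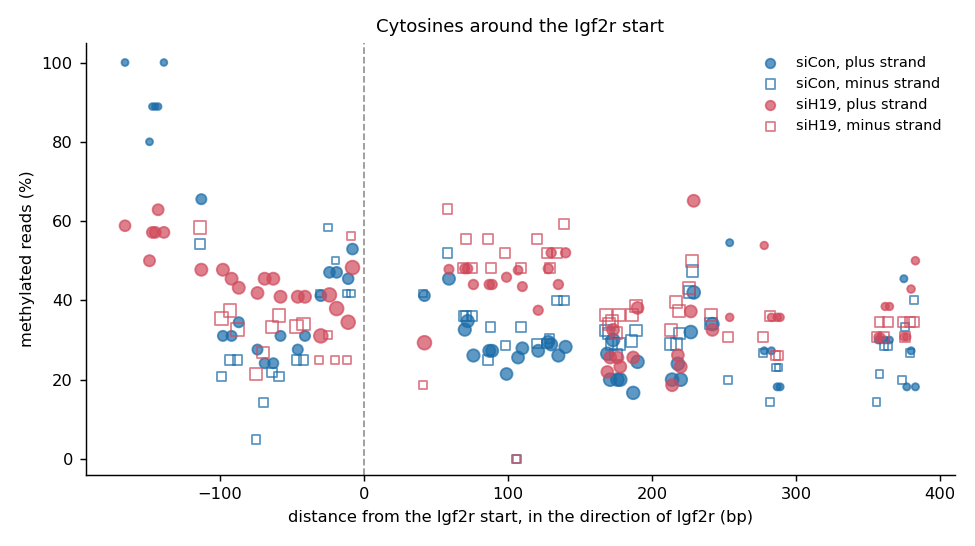
Methylated reads (%) of each covered cytosine around the Igf2r start against its distance in bp (negative is upstream), with siCon in blue, siH19 in red, the plus strand as filled circles, the minus strand as open squares and the mark area growing with the number of reads. From 58 to 140 bp each red mark lies above the blue mark of the same cytosine, except the one at 0% in both libraries, and red lies below blue on the outermost upstream fragment, where siCon had 9 or 10 reads per cytosine.

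The start of Slc22a3 was nearly free of methylation. Its window, chr17:12506704-12508704, had 70 cytosines, with 6.04% of 2748 reads methylated in siCon (interval 5.21 to 6.99) and 6.59% of 2626 in siH19 (interval 5.70 to 7.60). The stratified difference was 0.53 points (SE 0.62, interval -0.68 to 1.74, exact p = 0.421, adjusted p = 0.676). Of its cytosines 57 were under 10% in both libraries and 18 had no methylated read in either. The fragment 256 to 326 bp into the gene was the lowest of those with many reads, 0.759% of 1318 in siCon and 1.32% of 1290 in siH19.

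The exception was the upstream fragment printed above, at -433 to -398 bp from the Slc22a3 start, with 19.1% of 644 reads methylated in siCon and 21.3% of 629 in siH19. Within that short stretch its levels were higher away from the gene in both libraries. The CpG nearest to the gene had 9.38% of 64 and 7.55% of 53 plus strand reads methylated, and 7.28% of 151 and 12.7% of 157 minus strand reads. The CpG farthest from it had 39.4% of 33 and 50% of 28 on the plus strand, and 36.0% of 75 and 35.4% of 79 on the minus strand. The distal CpGs had fewer reads than the proximal ones.

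The start of Slc22a2 was higher. Its window, chr17:12583132-12585132, had 11 cytosines, all downstream in exonic sequence, with 60.6% of 310 reads methylated in siCon (interval 55.1 to 65.9) and 62.0% of 434 in siH19 (interval 57.3 to 66.4). The stratified difference was -2.05 points (SE 3.38, interval -8.67 to 4.57, exact p = 0.604, adjusted p = 0.790), and its sign changed with the deepest cytosines alone, to 1.63 points. Its 3 fragments differed from each other more than between libraries. That 265 bp after the start had 23.3% of 30 reads methylated in siCon and 30.6% of 72 in siH19, the next, 316 to 367 bp after it, 79.8% of 104 and 82.4% of 221, and the last 55.7% of 176 and 46.1% of 141.

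**Figure D4:**
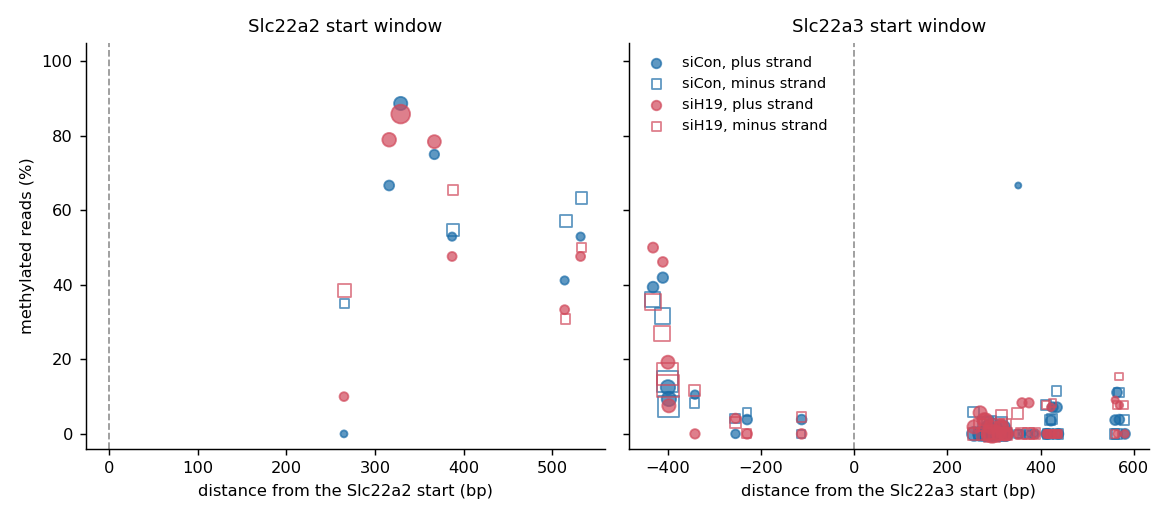
Methylated reads (%) of each covered cytosine in the Slc22a2 (left) and Slc22a3 (right) start windows against its distance from the start in bp (negative is upstream), with siCon in blue, siH19 in red, the plus strand as filled circles, the minus strand as open squares and the mark area growing with the number of reads. Most Slc22a3 cytosines lie under 10%, those of the upstream fragment reach 50%, and a single siCon cytosine with 6 reads is at 66.7%.

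Gene bodies were tested in the same way over 18019 bodies outside their own start windows, of which 0.189% were called higher in siH19 and 0.128% lower. None of the 5 body regions of the domain was called. The differences were 0.76 points (SE 1.92) for Igf2r outside Airn, -3.38 (SE 2.42) for the overlap of Igf2r and Airn, 1.16 (SE 2.62) for Airn outside Igf2r, -0.19 (SE 2.74) for Slc22a2 and -0.39 (SE 1.51) for Slc22a3. Over all bodies the median difference was 0.18 points, and over all start windows 0.088.

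Within bodies the levels were uneven. In Airn beyond Igf2r, 23 cytosines had 35.6% of 334 reads methylated in siCon and 44.1% of 381 in siH19, and single fragments ran from 0% to 100% in both libraries. In Slc22a3, with 24.4% of 1012 reads in siCon and 23.5% of 847 in siH19, 18 of 35 cytosines were under 10% in both libraries while the fragment nearest to the start window on the gene's side had 83.3% of 36 and 92.9% of 14 reads methylated. In Slc22a2, with 59.9% of 414 and 60.5% of 425 reads methylated, fragments ran from 23.1% to 71.4% in siCon and from 6.25% to 76.0% in siH19.

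**Figure D5:**
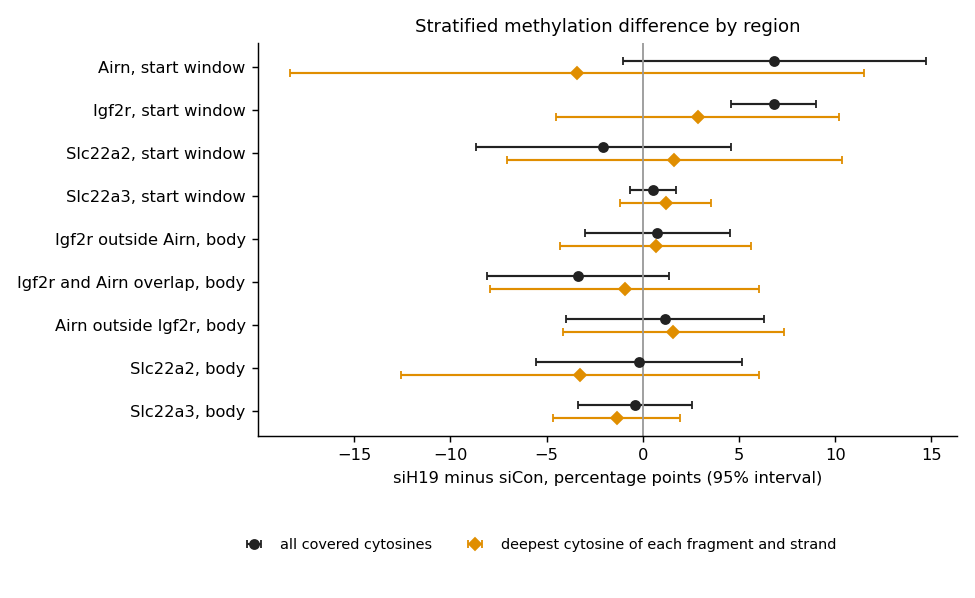
Stratified difference in methylation, siH19 minus siCon in percentage points with 95% intervals, for the 4 start windows and 5 body regions, over all covered cytosines (black circles) and over the deepest cytosine of each fragment and strand (orange diamonds). The interval of the Igf2r start lies above 0 with all cytosines and spans 0 with the deepest ones, and all other intervals span 0.

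At single cytosines 3 members were lower and 1 was higher in siH19 by at least 33 points with a two-sided Fisher's exact p under 0.05. Over all 1850635 cytosines 0.519% were higher and 0.467% lower by that rule. After adjustment over all of them 0.00648% had an adjusted p under 0.05 and no member did, the lowest being 0.556. At an unadjusted exact p under 0.05 there were 8 of 348 members, 3 higher and 5 lower, where 2.53% of all filtered cytosines reached that p.

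In the Slc22a3 start, the cytosine at 12507352 on the plus strand had 4 of 6 reads methylated in siCon and none of 24 in siH19 (exact p = 0.000547). Its partner on the minus strand had none of 14 and 2 of 36, and the other plus strand cytosines of that fragment had none of 6 reads in siCon. In the Igf2r start the other 2 that were lower lay on the outermost upstream fragment, at 12769803 with 9 of 9 and 20 of 35 reads (exact p = 0.0181) and at 12769830 with 10 of 10 and 20 of 34 (exact p = 0.0183). Their partners had 4 reads each in siCon, 2 and 4 of them methylated, and 8 of 14 and 6 of 16 in siH19. The one that was higher, at 12714634 on the minus strand in an Igf2r intron, had 4 of 19 and 5 of 7 (exact p = 0.0283), and its partner 5 of 7 and 3 of 3. At each of the 4 the library with fewer reads had 10 or fewer.

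The spread within a library was measured by comparing the plus and minus strands of each CpG. Of 155 member CpGs covered on both strands, 4 (2.58%) had a Fisher's exact p under 0.05 in siCon and 10 (6.45%) in siH19, where 3.51% and 3.28% of all such CpGs did. At the Igf2r start it was 1 of 56 in each library, and at the Airn start none of 7. Such counts depend on depth. The median absolute difference between strands was 6.43 points in siCon and 7.96 in siH19 at the Igf2r start, and 3.51 and 11.1 at the Airn start. Over all such CpGs of the genome, whatever their level, it was 3.06 and 3.13 points.

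Kcnq1ot1 and Peg3, which like Airn start within maternally methylated regions elsewhere in the genome, were also at middle levels. The Kcnq1ot1 start window, with 12 cytosines on 1 fragment, had 30.6% of 209 reads methylated in siCon (interval 24.8 to 37.2) and 48.0% of 196 in siH19 (interval 41.1 to 54.9). That of Peg3, with 6 cytosines on 1 fragment, had 40.0% of 135 (interval 32.1 to 48.4) and 35.9% of 195 (interval 29.5 to 42.8). The start of a shorter Snrpn transcript, chosen after the annotated gene start was found to hold too few covered cytosines, had 54.5% of 165 and 42.8% of 194 over 7 cytosines. The stratified differences were 16.2 points (SE 4.62, interval 7.11 to 25.2) at Kcnq1ot1 and -3.23 (SE 5.40, interval -13.8 to 7.36) at Peg3, and -8.12 (interval -18.5 to 2.31) at the shorter Snrpn transcript, beside 6.83 (SE 4.02, interval -1.05 to 14.7) at Airn. Of these, the Kcnq1ot1 start was called (exact p = 0.000844, adjusted p = 0.0171), and whether it differed from Airn was not tested. Its 12 cytosines lay on the 2 strands of 1 fragment, so that test also counts each molecule several times. The version with the deepest cytosine of each fragment and strand held 0 cytosines in this window, so the call was not checked that way.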

How the data were processed

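CpG methylation was measured by RRBS in 2 libraries, siCon and siH19, grouped by their labels. The members, lists and tests were chosen with earlier results of these data known. Per the study's methods, the authors used Bismark, set for non-directional libraries, at a service provider, trimmed filled-in bases and divided the reads that kept C by all reads of C or T. The version of Bismark is not given in the sources used here, removal of duplicate reads is not stated, and each library was called alone. The submitters' processing notes name bcl2fastq 1.8.4 and mm10. The deposited files hold, for each CpG cytosine and strand, a text field with methylated and total reads, another unit than a plain number, which was split into raw counts without normalization. The authors' score, the methylated fraction times a constant and rounded down, served only to check this and matched in 100% of entries.

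The 6041258 positions on assembled chromosomes were each a CpG cytosine of GRCm38. Genes were taken from GENCODE basic annotation, 55413 on these chromosomes. Cytosines inside CCGG or TCGA were left out, at least 5 reads per library and 5 cytosines per region were required, and strands were kept apart. Start windows reached 1 kb to each side, and bodies excluded them. Tests were the Cochran-Mantel-Haenszel test for regions (large-sample p for the adjustment over all regions, exact conditional p for the members) and two-sided Fisher's exact test for cytosines, with Benjamini-Hochberg adjustment over all regions of a kind or all cytosines, in Python 3.11.15 with scipy 1.17.1. The code was tried on simulated data with independent reads at each cytosine. Reads shared between cytosines were not simulated, so the error rate of the region tests on real fragments was not tested. With 1 library per group no difference between cultures can be told apart from the knockdown, and p-values and intervals cover read counting only. All 4 genes were named. The named cytosines were, by rule, those changed by at least 33 points at p under 0.05, at most 3 per region and direction, and the 5 deepest CpGs of the Airn and Igf2r starts. The cytosines at 0 in both libraries with their neighbours, the hexamer CpGs and the end CpGs of the upstream Slc22a3 fragment were named after their values were seen. Alternatives were 10 reads, summed strands, kept sites, no repeats, no deepest 1%, summed reads, unweighted means, quasi-binomial tests, deepest cytosines, windows of 500 bp and 2 kb and a bound of 20 points.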

Additional observations from a re-analysis of the deposited data

How the results depend on the processing

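The Igf2r start window kept a higher level in siH19 under all 12 alternatives, and no member region was called under any alternative with a test. These alternatives are not independent checks at Igf2r. The windows of 500 bp and 2 kb and the removal of the deepest 1% left its 6.80 points unchanged. Fisher's exact and the quasi-binomial test on summed reads shared the value 7.87. At Igf2r the difference ranged from 2.85 points (deepest cytosine of each fragment and strand) to 7.87 points (summed reads), and with strands summed and the deepest CpG of each fragment kept, chosen after seeing the data, it was 3.29. The Airn start difference was 10.5 points in a window of 500 bp and 0.58 in one of 2 kb. Several uncalled differences changed sign. As unweighted means of cytosines, which have no test, that of the Slc22a3 start was -0.44 and that of the Slc22a3 body 1.11. With at least 10 reads that of Igf2r outside Airn was -0.0103 and that of Airn outside Igf2r -1.31. With restriction-site cytosines kept it was -0.78 for Airn outside Igf2r, 1.18 for the Slc22a2 body and 0.052 for the Slc22a3 body. With reads summed over cytosines, in Fisher's exact and in the quasi-binomial test, it was 1.34 for the Slc22a2 start, 5.72 for the overlap of Igf2r and Airn and 0.57 for the Slc22a2 body. With the deepest cytosines it was -3.41 at the Airn start and 1.63 at the Slc22a2 start, and with summed strands as well -1.33 and 1.61. The Slc22a2 start was at 3.55 in a window of 500 bp. The cause of these changes was not tested. Strongly changed cytosines numbered 1 higher and 3 lower of 348, but 0 higher and 1 lower of 294 with at least 10 reads. With strands summed 1 was higher and 1 lower of 195 CpGs. With restriction-site cytosines kept 6 were higher and 4 lower of 589, and at 20 points 3 were higher and 5 lower of 348. Genome shares for these alternatives are not given here. The number with an adjusted p under 0.05 was 0 under each of the 6 alternatives that apply. No paired analysis was possible because each group had 1 library. Cytosines of the Airn start had 8 to 38 reads, and those of the Airn and Igf2r bodies as few as 5.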

Other observations

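Of 9 genes flanking the domain on chromosome 17, 5 had a testable start window and 8 a testable body, and none was called. Start levels in siCon ran from 0.126% to 94.5% and start differences from -1.32 to 1.27 points. Of the 5 starts, 1 had an unadjusted Cochran-Mantel-Haenszel p under 0.05 and none an adjusted one. Body differences ran from -6.64 to 13.8 points, with 2 of the 8 at an unadjusted Cochran-Mantel-Haenszel p under 0.05 and none after adjustment.

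Cytosines inside the recognition sites, left out above, had a larger share of reads with C than the other cytosines of the same windows in both libraries at Airn, Igf2r, Slc22a2 and Slc22a3. Bases filled in during library preparation lie at these sites, and how completely they were trimmed was not tested, so the shares are given as reads with C and not as methylation levels. At the Airn start the 6 site cytosines read C in 60.2% of reads in siCon and 63.2% in siH19, at the Igf2r start 15 had 64.7% and 69.8%, at the Slc22a2 start 8 had 79.3% and 82.4%, and at the Slc22a3 start 16 had 54.6% and 56.2%. Of those of the Slc22a3 start, 2 were above 90% and 3 under 10% in both libraries.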
